A study of Mus musculus with 6 samples.

Results

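The cyclin-dependent kinase (CDK) inhibitors of the CIP/KIP and INK4 families were measured in mouse spleen after total body irradiation (TBI). All 7 genes of both families were on the array: Cdkn1a, Cdkn1b and Cdkn1c of the CIP/KIP family, and Cdkn2a, Cdkn2b, Cdkn2c and Cdkn2d of the INK4 family. Every non-control spot that the array files named with 1 of these symbols was taken, which gave 12 probes of 55681. The irradiated group held 3 arrays from mice that had received 900 cGy of X-rays to the whole body 24 h before the spleens were taken. The unirradiated group held 3 arrays from resting mice at 0 cGy. All mice were of the strain B10.BALB-16.C2A, each array carried RNA pooled from 3 mice, and the sex and age of the mice are not given in the sources used here.

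CDKs drive the cell cycle when a cyclin is bound to them. CIP/KIP proteins bind complexes of a CDK with a cyclin, chiefly those of Cdk2, whereas INK4 proteins bind Cdk4 and Cdk6 alone and keep cyclin D away. Both keep the retinoblastoma protein RB active, which holds E2F transcription factors in check, and p21, the protein of Cdkn1a, is the best known target of p53 after DNA damage.

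The sequences before the start sites of Cdkn1a are shown because its probes gave the largest log2 changes of the family and because p53 is known to bind there. RefSeq (GRCm38.p6) gave 2 start sites 2790 bases apart, and the 250 bases before each are printed in the direction of transcription, with a match to the p53 response element in capitals. The windows lie at chr17:29090729-29090978 and chr17:29093519-29093768, plus strand.
Cdkn1a, upstream start: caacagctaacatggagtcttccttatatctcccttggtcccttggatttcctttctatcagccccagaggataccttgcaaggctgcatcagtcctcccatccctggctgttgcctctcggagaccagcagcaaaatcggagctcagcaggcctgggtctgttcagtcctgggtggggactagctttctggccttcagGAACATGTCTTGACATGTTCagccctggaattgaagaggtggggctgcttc
Cdkn1a, downstream start: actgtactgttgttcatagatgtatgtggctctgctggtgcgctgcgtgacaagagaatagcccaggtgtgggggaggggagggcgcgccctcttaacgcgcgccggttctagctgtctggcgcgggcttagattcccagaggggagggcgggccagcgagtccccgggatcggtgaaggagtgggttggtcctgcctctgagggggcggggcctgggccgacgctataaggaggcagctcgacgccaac

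The match in the upstream window covers bases 51 to 32 before the start, and 1 of its bases lies outside the consensus. A match was a pair of half-sites with no spacer, at most 1 such base, and the C and G of each half-site core intact. Windows holding such a match, on either strand, were 19 of 32851 in the mouse table (0.0578%). The table held 9 windows for 6 of the 7 genes (none for Cdkn1c), and no window other than that of the upstream Cdkn1a start held such a match. The downstream Cdkn1a window held the GC box GGGCGG at 2 places, beginning 104 and 46 bases before the start, a motif found on either strand in 32.7% of all windows. These matches describe letters only, and binding was not measured.

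The 3 probes of Cdkn1a lie at the 5' end, in the middle and at the 3' end of the gene, and the last 30 bases of each are printed in the order in which they lie along it. Capitals mark the ATG in the middle one.
Cdkn1a, 5' probe: acgtcccactttgccagcagaataaaaggt
Cdkn1a, middle probe: tcttgtgtttcagccacaggcaccATGtcc
Cdkn1a, 3' probe: gctgatcctttctcagtgttgaataccgtg

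Values are log2 processed intensities relative to the 75th percentile of the same array, here called log2 levels, and a change is the irradiated mean minus the unirradiated mean. A probe was tested if the 3 arrays of either group all showed it well above background, which held for 11 of the 12, and p-values were adjusted over all 39683 probes that met this filter (limma). Of the 11, 7 probes of 4 genes were higher after irradiation (Cdkn1a, Cdkn1c, Cdkn2a and Cdkn2b) and 4 probes of 3 genes were lower (Cdkn1b, Cdkn2c and Cdkn2d). Over all probes tested 26.4% were higher and 31.0% lower, 57.5% in all, so that a call by itself does not set a CDK inhibitor apart. The median log2 change of the 11 probes was 1.51, against -0.07 over all probes tested. Cdkn1a, Cdkn1b and Cdkn2b entered the family median with several probes each, so it weights the genes unequally. For all 11 tested probes the irradiated arrays lay on 1 side of the unirradiated arrays (7 higher, 4 lower). The same held for 65.7% of all probes tested (29.9% higher, 35.9% lower). The untested probe lay higher too, but on values mostly not well above background. The pools are separate according to the design text, and the p-values measure the spread between 3 pools and 3 pools, not between mice.

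**Figure D1:**
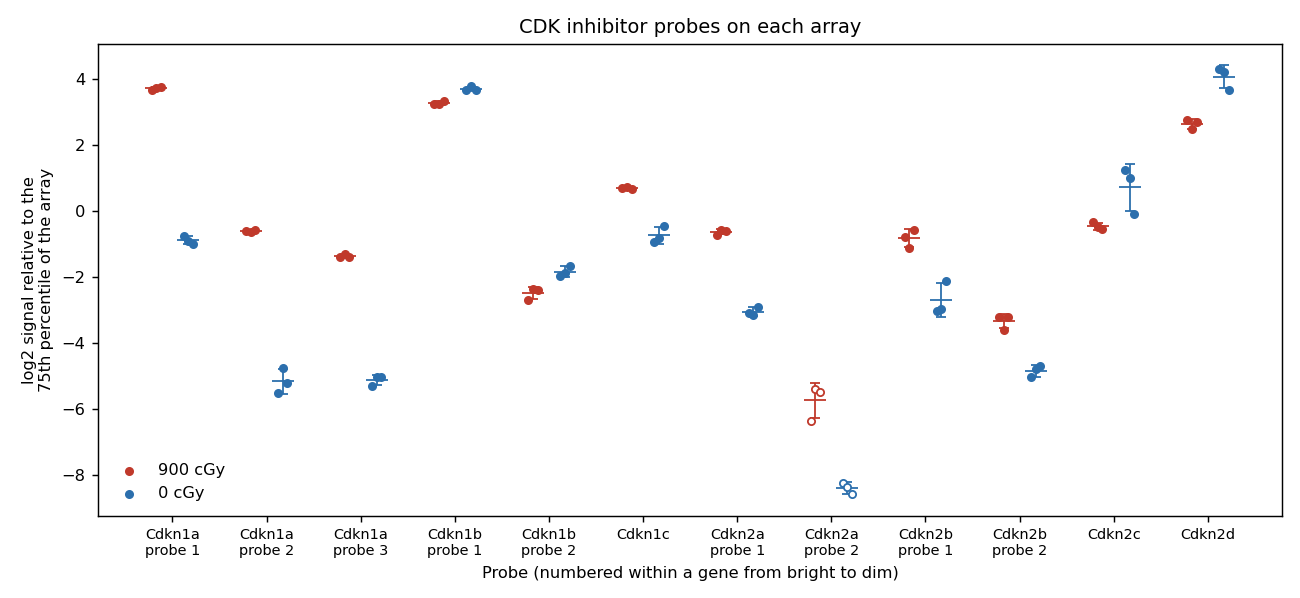
Log2 level of each of the 12 CDK inhibitor probes (horizontal axis) on the 3 arrays at 900 cGy (red) and the 3 at 0 cGy (blue); points are arrays, horizontal marks are means and bars are SDs, and open points mark the probe that was not tested. The groups do not overlap for any probe, and the widest spread is that of Cdkn2c at 0 cGy. Levels of different probes cannot be compared with each other.

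Whole spleen holds many cell types, and with bulk RNA fewer cells of a type and less RNA per cell cannot be told apart. Marker genes moved strongly between the groups. All 8 markers of red cell precursors were lower (median log2 change -6.75, or -4.95 with normexp background correction). Of these, Rhag and Klf1 were well above background on 1 irradiated array each. All 8 of B cells (-2.73) and 7 of 8 of T cells (-1.77, the other being higher) were lower too. So were all 7 tested of dividing cells (-2.89, or -2.67 with normexp), though Cenpf was well above background on 1 irradiated array only. All 8 markers of macrophages were higher (2.05), as were all 8 of stromal fibroblasts (1.33), 7 of 8 of endothelium (1.28), all 8 of fat (3.53) and 6 of 8 of pancreas (6.88). Of 8 neutrophil markers 1 was higher and 3 were lower. The mean log2 level of the pancreas markers was 4.11 to 4.88 at 900 cGy and -4.30 to 1.36 at 0 cGy. That of the fat markers was 1.28 or higher at 900 cGy and -1.25 or lower at 0 cGy. The mean log2 level of the B cell markers was 0.80 to 0.99 at 900 cGy and 3.67 to 4.10 at 0 cGy, so B cells, a main cell type of spleen, were measured in both groups. The probe of every marker was well above background on at least 1 array of each group, except that of Aurkb (dividing cells), which was so on none. The part of these markers in the changes of the CDK inhibitors was not tested.

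Among the CIP/KIP genes, Cdkn1a was much higher after irradiation, Cdkn1c moderately higher and Cdkn1b slightly lower. Cdkn1a encodes p21, which stops the cell cycle when DNA is damaged. Its 3' probe (NM_007669, mm9 chr17:29237377-29237436) had log2 levels of 3.66, 3.73 and 3.74 at 900 cGy, against -0.77, -0.90 and -1.01 at 0 cGy. The irradiated arrays lay at least 4.44 above the unirradiated ones. The level was 24.4-fold higher (95% confidence interval 20.8 to 28.6; log2 change 4.61 ± 0.10 SE, adjusted p = 2.39e-05, limma, n = 3 pools each), and its log2 change ranked 71 of the 39683 probes tested. The array carries this probe in 10 copies, whose log2 intensities had SDs of 0.030 to 0.059 within an array. The median intensities of the copies were 14485, 14732 and 15925 at 900 cGy, against 674, 619 and 692 at 0 cGy. The variation between copies is technical and does not measure the spread between pools.

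The 5' probe of Cdkn1a (NM_001111099, mm9 chr17:29227986-29228045) starts 9391 bases upstream of the 3' probe. Its log2 levels were -0.61, -0.63 and -0.59 at 900 cGy, against -5.52, -4.77 and -5.21 at 0 cGy. Again all 3 irradiated arrays were high and close to each other. The log2 change was 4.56 ± 0.19 SE, or 23.6-fold (adjusted p = 5.74e-05, limma). The middle probe (ENSMUST00000122348, mm9 chr17:29235299-29235358) had log2 levels of -1.41, -1.31 and -1.39 at 900 cGy, against -5.31, -5.04 and -5.02 at 0 cGy. These groups did not overlap either, and the log2 change was 3.75 ± 0.11 SE, or 13.5-fold (adjusted p = 4.53e-05, limma).

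The 3 Cdkn1a probes thus rose together, and their changes were compared within arrays by exact permutation tests, for which 3 against 3 arrays cannot give a p below 0.1. The change of the 3' probe exceeded that of the 5' probe by 0.05 and the groups overlapped (p = 0.8, two-sided exact permutation test; adjusted p = 0.8 over 5 pairs of probes of 1 gene). It exceeded that of the middle probe by 0.86 without overlap (p = 0.1, exact; adjusted p = 0.25). With normexp background correction, which adds an offset of 50 and compresses dim probes, the 5' probe changed by 3.14 and the middle probe by 2.40, against 4.46 for the 3' probe. The difference between the 3' and the 5' probe was then 1.32 (p = 0.1, exact). The 5' and middle probes were then 8.82-fold and 5.29-fold higher.

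Cdkn1c encodes p57, an imprinted inhibitor that is known to keep blood stem cells quiescent. Its probe (NM_009876, mm9 chr7:150644753-150644812, minus strand) had log2 levels of 0.70, 0.72 and 0.65 at 900 cGy, against -0.95, -0.81 and -0.47 at 0 cGy. The groups were 1.12 apart. Cdkn1c was 2.70-fold higher (log2 change 1.43 ± 0.14 SE, adjusted p = 0.000273, limma). Scaled to the spike-in controls, the log2 change was 1.16.

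Cdkn1b encodes p27, which is abundant in resting lymphocytes and is removed by the ubiquitin ligase subunit Skp2 when cells enter the cycle. Its bright probe (NM_009875, mm9 chr6:134875424-134875483) had log2 levels of 3.22, 3.24 and 3.32 at 900 cGy, against 3.65, 3.77 and 3.65 at 0 cGy. The irradiated arrays were lower, by a gap of 0.32 between the groups. The log2 change was -0.43 ± 0.09 SE, or 1.34-fold lower (adjusted p = 0.0055, limma). The other probe (ENSMUST00000067327, mm9 chr6:134873606-134873665) had log2 levels of -2.71, -2.36 and -2.39 at 900 cGy, against -1.97, -1.87 and -1.67 at 0 cGy. It was 1.57-fold lower (log2 change -0.65 ± 0.13 SE, adjusted p = 0.0063, limma). The changes of both probes differed by 0.22, with overlapping groups (p = 0.3, exact permutation test; adjusted p = 0.375).

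Among the INK4 genes, Cdkn2a and Cdkn2b, which lie next to each other on chromosome 4, were higher after irradiation, whereas Cdkn2c and Cdkn2d were lower. The Cdkn2a locus encodes p16INK4a and, in another reading frame from its own first exon, p19ARF, which restrains Mdm2. Both Cdkn2a probes lie in 1 stretch of 198 bases, and neither was assigned to 1 of these transcripts. The bright probe (NM_009877, mm9 chr4:88920405-88920464, minus strand) had log2 levels of -0.72, -0.59 and -0.60 at 900 cGy, against -3.10, -3.16 and -2.90 at 0 cGy. The groups lay 2.18 apart. The signal was 5.36-fold higher (log2 change 2.42 ± 0.10 SE, adjusted p = 6.0e-05, limma). The dim probe (mm9 chr4:88920543-88920602, minus strand) was well above background on 2 of 3 irradiated arrays and on 0 of 3 unirradiated arrays, so it was not tested. Its log2 levels were -6.36, -5.39 and -5.47 at 900 cGy, against -8.25, -8.35 and -8.58 at 0 cGy. Irradiated replicate 1 and the unirradiated arrays gave no measured level for it, so no fold is given.

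Cdkn2b encodes p15, an inhibitor that TGF-beta is known to induce. Its bright probe (NM_007670, mm9 chr4:88952276-88952335, minus strand) had log2 levels of -0.80, -1.12 and -0.57 at 900 cGy, against -3.04, -2.97 and -2.12 at 0 cGy. The groups did not overlap, and unirradiated replicate 3 was the highest of its group. It was 3.68-fold higher (log2 change 1.88 ± 0.28 SE, adjusted p = 0.00148, limma). The dim probe (mm9 chr4:88952720-88952779) had log2 levels of -3.22, -3.59 and -3.20 at 900 cGy, against -5.05, -4.80 and -4.71 at 0 cGy. It was 2.86-fold higher (log2 change 1.51 ± 0.15 SE, adjusted p = 0.000305, limma), and 1.67-fold higher with normexp background correction (log2 change 0.74). The changes of both probes differed by 0.37, with overlapping groups (p = 0.3, exact permutation test; adjusted p = 0.375).

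Cdkn2d encodes p19INK4d, whose level is known to follow the cell cycle. Its probe (NM_009878, mm9 chr9:21092934-21092993, minus strand) had log2 levels of 2.76, 2.47 and 2.68 at 900 cGy, against 4.30, 4.21 and 3.67 at 0 cGy. All irradiated arrays were lower, and unirradiated replicate 3 was 0.59 below the mean of the other unirradiated arrays. The log2 change was -1.42 ± 0.19 SE, or 2.68-fold lower (adjusted p = 0.000909, limma).

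Cdkn2c encodes p18, which is known to restrain the growth of lymphocytes and to act in plasma cell formation. Its probe (NM_007671, mm9 chr4:109333508-109333567, minus strand) had log2 levels of -0.35, -0.50 and -0.55 at 900 cGy, against 1.23, 0.99 and -0.10 at 0 cGy. Unirradiated replicate 3 was 1.21 below the mean of the other unirradiated arrays and only 0.25 above the highest irradiated array. The log2 change was -1.17 ± 0.34 SE, or 2.26-fold lower (adjusted p = 0.0229, limma). The call was lost when irradiated replicate 2 or 3 or unirradiated replicate 1 or 2 was left out (adjusted p between 0.0605 and 0.0774, limma, log2 changes of -1.16 to -0.91). Without unirradiated replicate 3 the log2 change was -1.58 (adjusted p = 0.000298, limma).

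The same array was low in markers of dividing cells and of red cell precursors. The mean log2 level of 8 dividing cell markers was -1.90 to -1.75 at 900 cGy, against 1.17, 0.93 and -0.21 on unirradiated replicates 1, 2 and 3. Unirradiated replicate 3 was thus 1.26 below the mean of the other unirradiated arrays in dividing cell markers, 1.47 below in red cell precursor markers and 1.23 below in neutrophil markers. In B cell markers it was 0.36 above them. The part of these cell types in the spread of Cdkn2c and Cdkn2d was not tested.

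**Figure D2:**
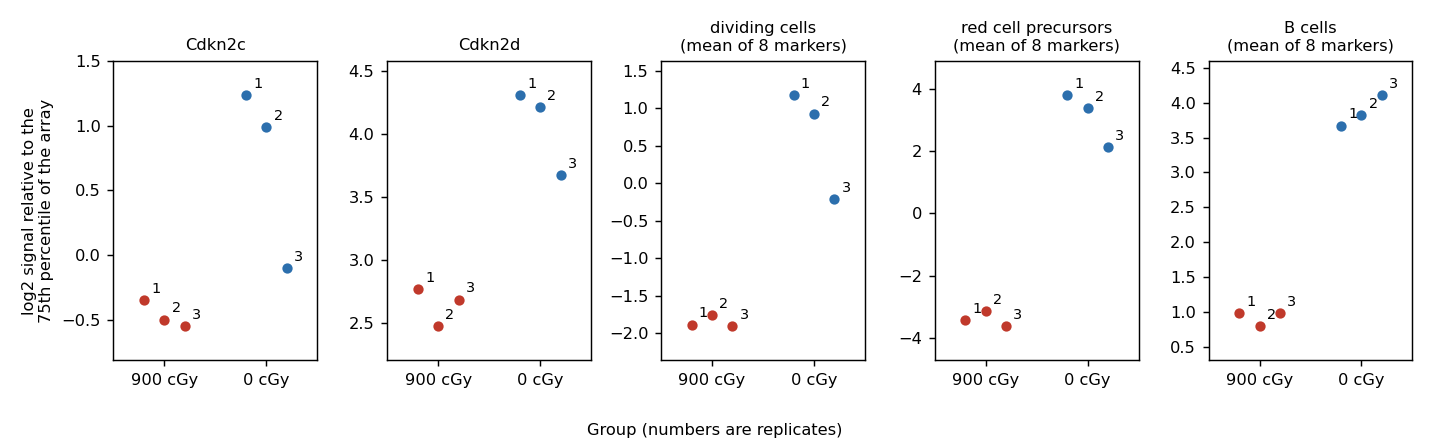
Log2 level of Cdkn2c and Cdkn2d and mean log2 level of 8 markers each of dividing cells, red cell precursors and B cells (vertical axes, 1 scale per panel) on the 3 arrays at 900 cGy (red) and the 3 at 0 cGy (blue); numbers are replicates. Unirradiated replicate 3 is the lowest of its group in the first 4 panels and the highest in the B cell panel.

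The slide carried the arrays in rows, per the file headers: row 1 held the 3 unirradiated arrays and irradiated replicate 1, and row 2 held irradiated replicates 2 and 3. Within row 1, and equally with the row as a block, the log2 changes were 4.56, 4.56 and 3.71 for the 3', 5' and middle probes of Cdkn1a, 1.44 for Cdkn1c, 2.34 for the bright Cdkn2a probe, 1.91 and 1.64 for the bright and dim Cdkn2b probes and -1.30 for Cdkn2d. These calls held in row 1 alone, where the single irradiated array was taken to vary like the others. For the bright Cdkn1b probe the change in row 1 was -0.46 and the call was lost (adjusted p = 0.105, limma), though not with the row as a block (adjusted p = 0.0385). For the other Cdkn1b probe it was -0.87 and the call held. For Cdkn2c it was -1.06 and the call was lost in row 1 (adjusted p = 0.19, limma) and with the row as a block (adjusted p = 0.144).

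**Figure D3:**
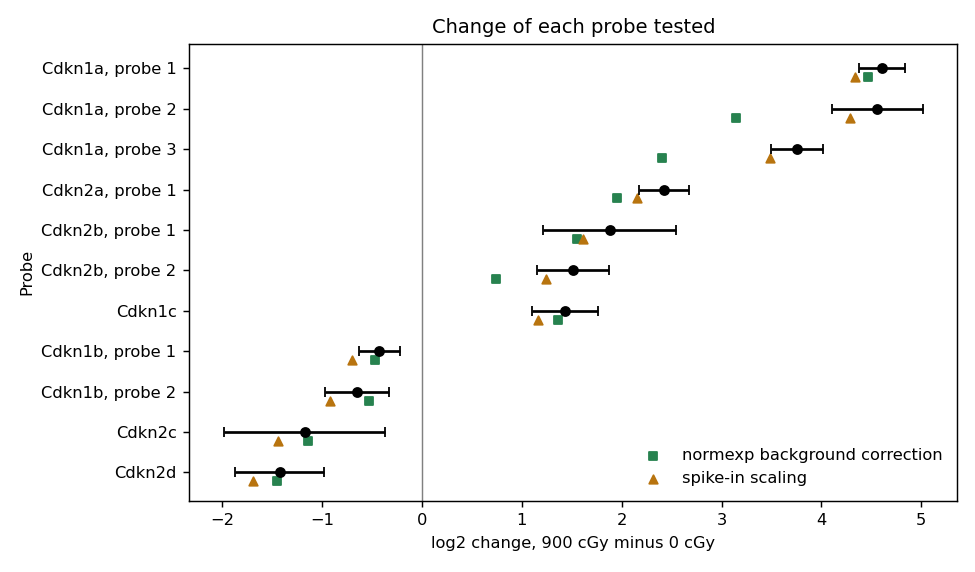
Log2 change, 900 cGy minus 0 cGy (horizontal axis), of each of the 11 CDK inhibitor probes tested; black points are the fitted changes with 95% confidence intervals (limma, n = 3 pools each), green squares the changes with normexp background correction and orange triangles those with scaling to spike-in controls. Every change keeps its sign under both, and the green squares fall furthest below the black points for the 5' and middle probes of Cdkn1a (probes 2 and 3) and the dim probe of Cdkn2b (probe 2).

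The arrays were also scaled to 292 spike-in control spots, whose mean log2 level lay 2.72, 2.96 and 2.82 above the 75th percentile at 900 cGy, against 2.41, 2.76 and 2.52 at 0 cGy, with overlap of the groups. Among all called probes 29.4% were higher on that scale, against 46.0% otherwise, and the median log2 change of all probes was -0.34 then, against -0.07. The same 7 CDK inhibitor probes were called higher and the same 4 lower. The log2 changes were then 4.34 for the 3' probe of Cdkn1a, 2.15 for the bright Cdkn2a probe, -0.70 for the bright Cdkn1b probe, -1.44 for Cdkn2c and -1.69 for Cdkn2d.

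Ordered by the log2 change of the brightest probe of each gene, the family ran from Cdkn1a at the top through Cdkn2a, Cdkn2b, Cdkn1c, Cdkn1b and Cdkn2c to Cdkn2d. Neighbours in this order were compared within arrays, in 6 pairs. The change of Cdkn1a exceeded that of Cdkn2a by 2.19 and that of Cdkn1c exceeded that of Cdkn1b by 1.86, in both cases without overlap of the groups (p = 0.1, exact permutation test, the smallest that 3 against 3 allow; adjusted p = 0.2). The change of Cdkn2a exceeded that of Cdkn2b by 0.54, also without overlap (p = 0.1, exact; adjusted p = 0.2), and by 0.41 with normexp background correction (p = 0.2, exact). For the other 3 pairs the groups overlapped. Those differences were 0.45 for Cdkn2b over Cdkn1c (p = 0.2, exact; adjusted p = 0.3), 0.75 for Cdkn1b over Cdkn2c (p = 0.3, exact; adjusted p = 0.36) and 0.25 for Cdkn2c over Cdkn2d (p = 0.5, exact; adjusted p = 0.5). Neighbours were ranked on these same changes, so the sign of each difference was fixed beforehand. With no p below 0.1, the order was not settled by these arrays for any of the 6 pairs.

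The genes most like each member were found among 16235 genes as those with the smallest root mean square difference between their log2 levels and the member's over the 6 arrays, each centred on its own mean. All 6 arrays share the contrast of the groups, so likeness mostly reflects a similar change. For Cdkn1a the measure gave Serpinb5, Tmem125 and Eda2r, but none of these was well above background on an unirradiated array (0 of 3 each), so their likeness to Cdkn1a rests on values without a measured level and no size is given. Nearest to Cdkn2a were Slc11a1, a metal transporter of macrophage phagosomes (difference 0.05, log2 change 2.37), Clec4n, the C-type lectin dectin-2 of myeloid cells (0.05, 2.48), and Cmbl, a hydrolase (0.07, 2.34).

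Nearest to Cdkn1c were Pakap, Dip2c and the nucleotide sugar receptor P2ry14, with differences of 0.02 to 0.03. Nearest to Cdkn2b were Cldn22, a claudin, the transcription factor Klf15 and Tspyl5, with differences of 0.10, 0.14 and 0.15. Tspyl5 was well above background on 1 of 3 unirradiated arrays only. With normexp background correction the log2 changes were 0.85 for Cldn22, 1.35 for Klf15 and 0.57 for Tspyl5, against 1.55 for the bright Cdkn2b probe. Nearest to Cdkn1b were Cmc4, Emc6 and Trub2, within 0.02 to 0.03. Nearest to Cdkn2c were Nqo1, a quinone reductase, Poc1a, a centriole protein, and Ube2l6, a conjugating enzyme of ISG15, within 0.04 to 0.05. Nearest to Cdkn2d were the mitotic histone kinase Haspin, the kinase Vrk1 and Platr10, within 0.05 to 0.06, though Platr10 was well above background on 0 of 3 irradiated arrays.

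The partners and regulators of the family were counted in 8 lists, with 1 probe per gene. Over all 17784 genes tested this way 33.3% were higher and 29.8% lower, 63.1% in all, and the median log2 change was 0.01. Of the 11 tested cyclins and CDKs that the inhibitors bind, 8 were lower, 2 were higher and 1 did not pass, with a median of -1.28. The largest changes were those of 3 cyclin genes. Ccna2 was 11.2-fold lower (log2 change -3.49 ± 0.47 SE), Ccne1 8.73-fold lower (-3.13 ± 0.46 SE) and Ccnb2 7.90-fold lower (-2.98 ± 0.37 SE). The INK4 targets Cdk4 and Cdk6, named for their role after their values were seen, had log2 changes of -0.74 and -1.28 and were lower. The members that rose, named after their values were seen, were the D cyclins Ccnd1 (log2 change 1.01) and Ccnd2 (0.74), the activators of Cdk4 and Cdk6. Ccnd3 had a log2 change of -0.64 and did not pass (adjusted p = 0.078, limma).

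Of 6 genes that activate CDKs, 4 were lower and 0 higher (median -0.83). These were the phosphatase genes Cdc25b (log2 change -2.78 ± 0.26 SE), Cdc25c (-2.34 ± 0.32 SE, -1.43 with normexp background correction) and Cdc25a (-1.22 ± 0.22 SE), whose products remove inhibitory phosphates from CDKs, and Cdk7 (-0.45 ± 0.11 SE), the kinase of the CDK-activating complex. In slide row 1 alone Cdc25a lost its call (adjusted p = 0.0612, limma), and Cdk7 lost it there (0.168), with the row as a block (0.0991) and without irradiated replicate 3 (0.0593). The Cdk7 partners Ccnh and Mnat1 had log2 changes of -0.11 and 0.15 and did not pass, and that of Mnat1 was -0.12 with spike-in scaling. Of 13 RB and E2F genes 10 were lower, 1 was higher and 2 did not pass (median -1.11). E2f8, E2f2 and E2f7 had log2 changes of -3.31 ± 0.47, -3.14 ± 0.27 and -2.40 ± 0.37 SE. The single gene that rose was Rbl2, the RB relative p130 of resting cells (log2 change 0.59), named after its value was seen, and it did not pass with spike-in scaling (log2 change 0.32, adjusted p = 0.164, limma).

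Of 10 other genes that restrain CDKs, 6 were lower, 3 were higher and 1 did not pass (median -0.42). Cdkn3, a phosphatase that acts on CDKs and is no member of the CIP/KIP or INK4 families, was 6.80-fold lower (log2 change -2.77 ± 0.37 SE). Pkmyt1, a kinase that inhibits Cdk1, was 4.23-fold lower (-2.08 ± 0.16 SE), and Gadd45a, a stress gene that p53 is known to induce, was 2.36-fold lower (-1.24 ± 0.26 SE). Gadd45a lost its call in slide row 1 alone (adjusted p = 0.0951, limma) and with the row as a block (0.0611). The members that rose were Gadd45b, Cdk2ap2 and Gadd45g (log2 changes of 1.14, 0.48 and 0.36), named after their values were seen. With spike-in scaling only Gadd45b of these passed.

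Of 11 tested genes that set the abundance of CIP/KIP products, 8 were lower, 2 were higher and 1 did not pass (median -1.24). Dtl, the substrate receptor of the ligase that degrades p21, had a log2 change of -2.61 ± 0.41 SE. Myc, which represses Cdkn1a and Cdkn1b, had one of -2.16 ± 0.08 SE, and Foxo3, which activates Cdkn1b, one of -1.68 ± 0.31 SE, whose call was lost in slide row 1 alone (adjusted p = 0.0658, limma). The members that rose, named after their values were seen, were Mdm2, the ligase of p53 (log2 change 0.92), and Skp2, that of p27 (0.63). Skp2 did not pass with spike-in scaling. Trp53, the gene of p53, was also named after its value was seen and was lower (log2 change -1.08 ± 0.12 SE). Of 15 genes that set the abundance of INK4 products, 3 were higher, 6 were lower and 6 did not pass (median -0.22). Ezh2, the methyltransferase of the Polycomb complex that silences Cdkn2a, was 3.28-fold lower (log2 change -1.71 ± 0.23 SE). Id1, which blocks activation of Cdkn2a by ETS factors, was 3.02-fold higher (1.59 ± 0.11 SE), and Ets2, such a factor, was 1.91-fold higher (0.93 ± 0.14 SE). Ets1, another ETS factor of the list that was named after its value was seen, was 1.90-fold lower (-0.92 ± 0.18 SE). Smad3, which carries the TGF-beta signal and was named after its value was seen, was the other member that rose (log2 change 0.47). It did not pass with spike-in scaling (0.20).

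Of 20 other genes that p53 activates, 17 were higher and 3 lower (median 1.51). Mdm2 is in this list as well as in that of CIP/KIP regulators. Gadd45a, which p53 is also known to induce and which was lower, was counted with the other restraints on CDKs and not here. No unirradiated array showed Eda2r well above background, and its level was higher by a factor of at least 4.49, a bound that holds for the main background correction only, since the log2 change was 0.97 with normexp. Gdf15, a stress cytokine, had log2 levels of 2.77, 2.82 and 3.02 at 900 cGy, against -0.99, -0.54 and -1.20 at 0 cGy (log2 change 3.77 ± 0.18 SE). Phlda3, an inhibitor of Akt, had log2 levels of 5.43, 5.37 and 5.28 at 900 cGy, against 1.79, 1.68 and 1.87 at 0 cGy (3.58 ± 0.09 SE). Both rose less than Cdkn1a on the log2 scale, and these differences were not tested. The members that fell, named after their values were seen, were Btg2, Sesn1 and Rrm2b (log2 changes of -0.82, -0.68 and -0.51).

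Of 10 genes associated with cellular senescence, a state of lasting arrest in which p21 and p16 are high, 7 were higher, 1 was lower and 2 did not pass (median 1.21). Mmp3, a matrix protease, had log2 levels of 2.48, 2.01 and 2.49 at 900 cGy, against -2.38, -2.12 and -2.19 at 0 cGy (log2 change 4.56 ± 0.16 SE). The chemokine genes Ccl2 and Cxcl1 had log2 changes of 2.20 ± 0.25 and 2.09 ± 0.33 SE, the second being 0.86 with normexp background correction. The member that fell was Lmnb1, lamin B1 (-1.83), named after its value was seen. Markers of macrophages, stroma and fat were higher too, and their part in these changes was not tested.

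**Figure D4:**
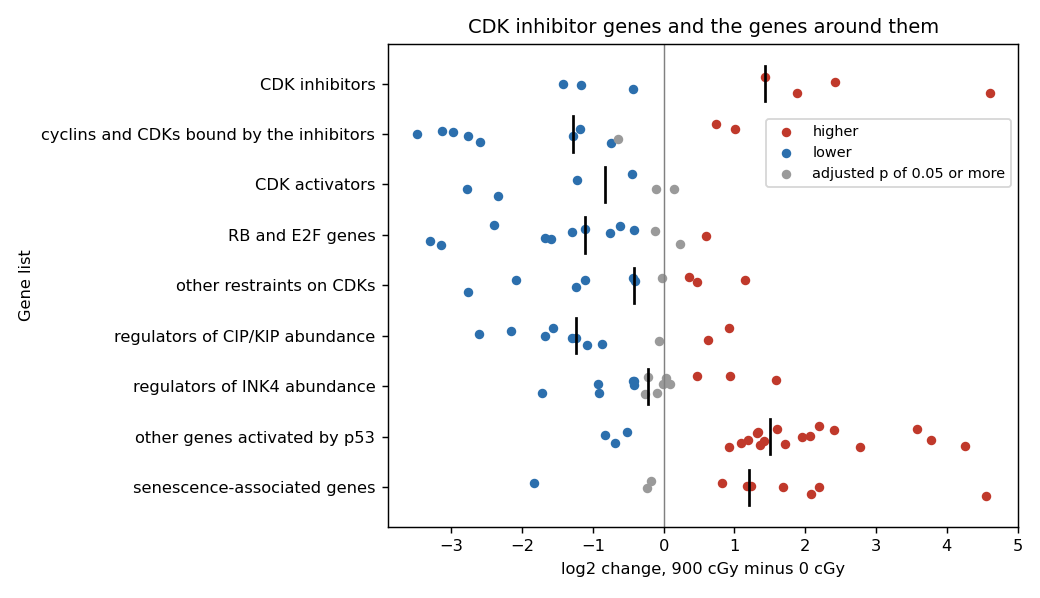
Log2 change, 900 cGy minus 0 cGy (horizontal axis), of the 7 CDK inhibitor genes (1 probe each) and of the tested members of 8 gene lists (rows); each point is a gene, red or blue where it was called higher or lower, grey where it did not pass an adjusted p of 0.05 (limma), and black bars are medians. The p53 and senescence lists lie mostly to the right of 0, the cyclins and CDKs, the E2F genes and the CIP/KIP regulators mostly to the left, and the CDK inhibitors on both sides.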

How the data were processed

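Spleen RNA was hybridised to Agilent one-colour arrays of which 6 were analysed, and Agilent Feature Extraction 10.5.1.1 read the scans, per the file headers. The deposited processed intensity is background-subtracted and detrended within an array but not scaled between arrays, and weak spots carry a surrogate value, which distorts folds of dim probes. From these values, control spots (3671 per array) and flagged spots (91 to 146) were left out, log2 intensities were reduced by the log2 of the array's 75th percentile (1144, 1114 and 1182 at 900 cGy, 1166, 1152 and 1403 at 0 cGy), and spots of 1 probe were averaged. Between 39036 and 41267 probes per array were well above background and 0 spots were saturated. A value table that the authors deposited is in log2 on the same scale, centred on each probe's median (column medians -0.025, 0.018 and -0.0083 at 900 cGy, 0.047, -0.0059 and -0.046 at 0 cGy), and served as an alternative.

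Groups, taken from the titles, were compared with limma 3.58.1 in R 4.3.3 (two-sided, Benjamini-Hochberg, threshold 0.05), and the steps were tested on simulated data. Exact permutation tests used scipy 1.17.1. A gene in a list was represented by its brightest probe, and named through RefSeq GRCm38.p6 (27229 of 55681 probes by accession, 3586 by symbol, 565 by synonym, the rest as in the files). Probe positions are those of the files (mm9). Members and lists were chosen with earlier results of these data known, and so were the motif and the comparisons between probes of 1 gene. Named were all members, the 3 largest changes called in each list, every member of a list of 6 or fewer, and the 3 genes most like each member. Replicate numbers did not pair the arrays, so no block was used. Alternatives changed the background correction, the scaling, the filter on dim probes, the slide row, the block and the arrays left in. Precision is limited by having 3 arrays per group.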

Additional observations from a re-analysis of the deposited data

How the results depend on the processing

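Across 16 alternative settings no CDK inhibitor probe changed direction, but most of these settings could not have changed it. The groups did not overlap for any probe, so leaving out an array, slide row 1 alone or a block could not reverse a sign. The filters on dim probes kept the same values, and the authors' table held nearly the same ones. Only the background correction and the scaling could have changed a direction. The calls of Cdkn1a, Cdkn1c, Cdkn2a, Cdkn2b and Cdkn2d and of the dim Cdkn1b probe held in every setting that gave a value. In slide row 1 alone the bright Cdkn1b probe (-0.46) and Cdkn2c (-1.06) lost their calls, which left 2 CDK inhibitor probes lower, and with the row as a block Cdkn2c did (-1.06). Leaving out 1 array at a time, the log2 change of Cdkn2c lay between -1.58 and -0.91, and the number of CDK inhibitor probes called lower was 3 or 4. Slide row 1 alone holds 4 arrays, and there 6043 probes of all were higher and 5968 lower, in place of 10488 and 12319. With spike-in scaling 6702 were higher and 16089 lower, and with the row as a block 7728 and 9260.

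In slide row 1 alone, 2 CDK activators, 4 RB and E2F genes, 3 other restraints on CDKs, 4 regulators of CIP/KIP abundance, 2 regulators of INK4 abundance and 1 other gene activated by p53 were lower. There 0 RB and E2F genes, 1 other restraint and 1 regulator of CIP/KIP abundance were higher, and the same counts came from spike-in scaling. With the row as a block 6 RB and E2F genes and 3 other restraints were lower and 1 regulator of CIP/KIP abundance was higher. Leaving out 1 array at a time gave 1 to 2 regulators of CIP/KIP abundance higher and 1 to 2 senescence-associated genes lower. Of the single genes named in the lists, Cdc25a, Cdk7, Gadd45a and Foxo3 lost their calls in row 1 alone, Cdk7 and Gadd45a also with the row as a block, and Cdk7 also without irradiated replicate 3 (-0.40). The causes were not tested.

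The replicate numbers of the titles are shared between the groups. Deviations of same-numbered arrays from their group means correlated at -0.0083 to 0.11, over 0.1 in 1 of 3 pairs, and not every array correlated best with its own number. With the replicate block 9935 probes were higher and 11297 lower, the log2 change of the 3' Cdkn1a probe was 4.61 (adjusted p = 0.00125, limma), and no CDK inhibitor call changed. Signal over background limits the dim probes: those of Cdkn1a and Cdkn2b shrank with normexp background correction. The dim Cdkn2a probe, untested otherwise, was called higher without a filter on dim probes and without irradiated replicate 1. In the second setting it met the filter through the irradiated arrays only. It was well above background on 0 of 3 unirradiated arrays, so both calls rest on values without a measured level and are no evidence of a rise.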
